A study of Mus musculus with 9 samples.

Results

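The genes described here encode the machinery that licenses and fires DNA replication origins and builds the replication fork. A list of 41 mouse genes was taken by gene name from a table of 23171 gene rows, and all 41 had a row. They were followed in CD4 T cells of C57BL6 mice, taken from lymph nodes and spleen and sequenced in 9 libraries. The libraries fall into 3 groups of 3: naive cells, cells with low Hopx (Hopx low) and cells with high Hopx (Hopx high). The protein Hopx is a small homeodomain factor that lacks DNA binding. All libraries share 1 treatment label. Mice were given chimeric antibodies that bring an antigen to dendritic cells, T cells were sorted 5 days later, and after 12 h of restimulation with antigen-presenting cells in culture they were sorted once more for RNA. The comparisons ask how replication genes differ between antigen-experienced T cells labelled Hopx low and Hopx high, and between these and naive cells, after the same restimulation. The labels give neither the animals behind a replicate nor whether the naive donors had been injected, and a p-value covers only the spread among the samples at hand.

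Replication starts in 2 steps that the cell keeps apart in time. In the first, the origin recognition complex with Cdc6 and Cdt1 loads the ring-shaped Mcm2-7 helicase onto DNA, and geminin (Gmnn) blocks reloading later in the cycle. In the second, cyclin E with its kinase and the kinase Cdc7 with Dbf4 activate the helicase, which joins Cdc45 and the GINS complex and then moves with primase, polymerases, the sliding clamp PCNA and its loader. Naive T cells rest outside the cycle with few of these proteins, antigen stimulation makes them produce them before the first S phase, and many of the genes are known targets of E2F transcription factors.

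Promoter sequence is shown first because the E2F-type site is the known sequence feature that many of these genes share. The RefSeq promoter table for GRCm38.p6 held a window from 250 bases before to 50 bases after the start for 31 of the 41 genes. The letters TTTCCCGC, TTTCGCGC, TTTGCCGC and TTTGGCGC were searched on both strands, and a pair of matches on opposite strands may overlap. A match stood in 13 of the 31 windows (41.9%), against 2.61% of the 27025 windows of all genes, which were not matched for base composition. The simple letters CCAAT stood in 18 of the 31 windows (58.1%), against 41.1% of all windows. Of the genes called higher in Hopx high than in naive cells, 9 had a window and 6 of these held an E2F-type match, namely Mcm3, Mcm5, Mcm6, Cdc6, Orc1 and Clspn. Among genes not called, 7 of 22 windows held one, namely Mcm7, Rfc3, Lig1, Pold1, Gins3, Cdt1 and Pola1. A stretch of 200 bases across the start is printed for the 6 called genes, for Rfc3 as a gene with matches that was not called, and for Pcna, which held none. The start is that of RefSeq, and for Mcm5 and Mcm6 the gene start in GENCODE M21 lies just past the printed end. For Cdc6 the GENCODE start is at 98907801, so the whole printed stretch and its match lie inside that gene. For Pcna the GENCODE start is at 132253314, upstream of the RefSeq start, so the window covers less of the sequence ahead of it. The stretches are chr1:20820283-20820482 for Mcm3 (minus strand), chr8:75109339-75109538 for Mcm5 (plus strand), chr1:128359676-128359875 for Mcm6 (minus strand), chr11:98907981-98908180 for Cdc6 (plus strand), chr4:108579284-108579483 for Orc1 (plus strand), chr4:126556810-126557009 for Clspn (plus strand), chr5:151651179-151651378 for Rfc3 (minus strand) and chr2:132253151-132253350 for Pcna (minus strand). Each reads 5′ to 3′ on the gene's strand, and capitals mark every match on either strand. Mcm3 has a further match beyond the printed end, and the longer runs in Mcm5 and Mcm6 are overlapping matches on opposite strands.
Mcm3: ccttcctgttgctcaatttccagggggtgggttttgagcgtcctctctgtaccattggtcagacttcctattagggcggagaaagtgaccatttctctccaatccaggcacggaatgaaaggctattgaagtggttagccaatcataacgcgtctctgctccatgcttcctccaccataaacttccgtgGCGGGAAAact
Mcm5: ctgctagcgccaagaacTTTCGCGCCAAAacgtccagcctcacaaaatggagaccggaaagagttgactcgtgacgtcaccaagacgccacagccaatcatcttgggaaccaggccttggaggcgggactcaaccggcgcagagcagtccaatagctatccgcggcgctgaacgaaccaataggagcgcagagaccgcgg
Mcm6: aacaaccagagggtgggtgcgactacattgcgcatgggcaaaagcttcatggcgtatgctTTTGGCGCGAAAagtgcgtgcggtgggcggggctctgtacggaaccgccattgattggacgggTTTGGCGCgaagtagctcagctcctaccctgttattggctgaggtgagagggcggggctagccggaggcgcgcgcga
Cdc6: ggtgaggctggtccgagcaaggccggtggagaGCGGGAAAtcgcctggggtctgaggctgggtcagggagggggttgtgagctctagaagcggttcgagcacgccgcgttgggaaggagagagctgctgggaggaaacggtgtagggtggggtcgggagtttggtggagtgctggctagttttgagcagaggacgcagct
Orc1: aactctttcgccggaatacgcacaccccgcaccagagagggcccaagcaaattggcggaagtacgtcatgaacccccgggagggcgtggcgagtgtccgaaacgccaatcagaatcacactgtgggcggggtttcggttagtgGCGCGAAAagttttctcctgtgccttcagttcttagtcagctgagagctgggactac
Clspn: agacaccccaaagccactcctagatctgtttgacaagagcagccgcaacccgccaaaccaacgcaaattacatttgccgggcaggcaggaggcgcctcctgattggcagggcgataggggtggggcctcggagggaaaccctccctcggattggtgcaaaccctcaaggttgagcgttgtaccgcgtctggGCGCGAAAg
Rfc3: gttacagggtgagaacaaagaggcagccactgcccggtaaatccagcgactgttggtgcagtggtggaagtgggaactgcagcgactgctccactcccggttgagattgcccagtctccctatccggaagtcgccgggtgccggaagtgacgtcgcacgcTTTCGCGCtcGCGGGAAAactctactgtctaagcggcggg
Pcna: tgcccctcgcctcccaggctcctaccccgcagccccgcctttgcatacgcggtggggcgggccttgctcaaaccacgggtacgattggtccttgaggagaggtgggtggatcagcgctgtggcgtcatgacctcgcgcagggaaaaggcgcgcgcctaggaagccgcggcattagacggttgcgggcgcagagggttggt
These matches describe letters in a window, not bound sites. Within the printed stretches Mcm6 held 3 matches and Mcm5 and Rfc3 held 2 each.

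Values are bases of coverage per megabase (Mb) of a library's summed coverage. Summed coverage was 63.3, 86.5 and 289 megabases in naive replicates 1, 2 and 3, 330 to 442 megabases in Hopx low and 203 to 800 megabases in Hopx high. A read of an assumed 100 bases would be worth 1.58 and 1.16 bases per Mb in naive replicates 1 and 2 and 0.125 to 0.492 elsewhere, so low values are poorly resolved, above all in those 2 libraries. Naive replicates 1 and 2 differed by about the sampling noise (median chi-square ratio 1.02 at that read length, against 6.59 to 15.7 for all remaining within-group pairs) and count as 1 sample here, which leaves n = 2 for naive. Gas5, a non-coding host of small nucleolar RNAs, took 1.16% to 40.0% of the coverage of a library. All 10 CD4 T cell markers were detected in every group. Hopx RNA was listed at 0, 0 and 1.64 bases per Mb in naive replicates 1, 2 and 3. It was at 3.32, 6.90 and 3.29 in Hopx low and 8.95, 7.79 and 4.89 in Hopx high. The Hopx groups thus overlapped in Hopx RNA, with Hopx high replicate 3 below Hopx low replicate 2. Xist had 76.1 to 263 bases per Mb in naive libraries and at most 0.400 in any Hopx library, so a sex difference and the naive state cannot be told apart in comparisons with naive. In bulk RNA, fewer cells of a type and less RNA per cell cannot be told apart either.

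Summed over the 41 genes, the level was 621, 803 and 1152 bases per Mb in naive replicates 1, 2 and 3. The sum was 1951, 1732 and 2308 in Hopx low and 3336, 2664 and 1615 in Hopx high. Both Hopx groups lay above every naive library, and they overlapped with each other because Hopx high replicate 3 had the lowest sum of the 6. That library had the lowest value of its group for 37 of the 41 genes, and naive replicate 3 had the highest of its group for 34. All 41 genes had coverage in each Hopx library, while 12, 14 and 1 of them were listed at 0 in naive replicates 1, 2 and 3. Those zeros fell mostly on low genes of initiation and the checkpoint, such as Orc1, Cdc6, Mcm10, Cdc45 and Clspn.

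**Figure D1:**
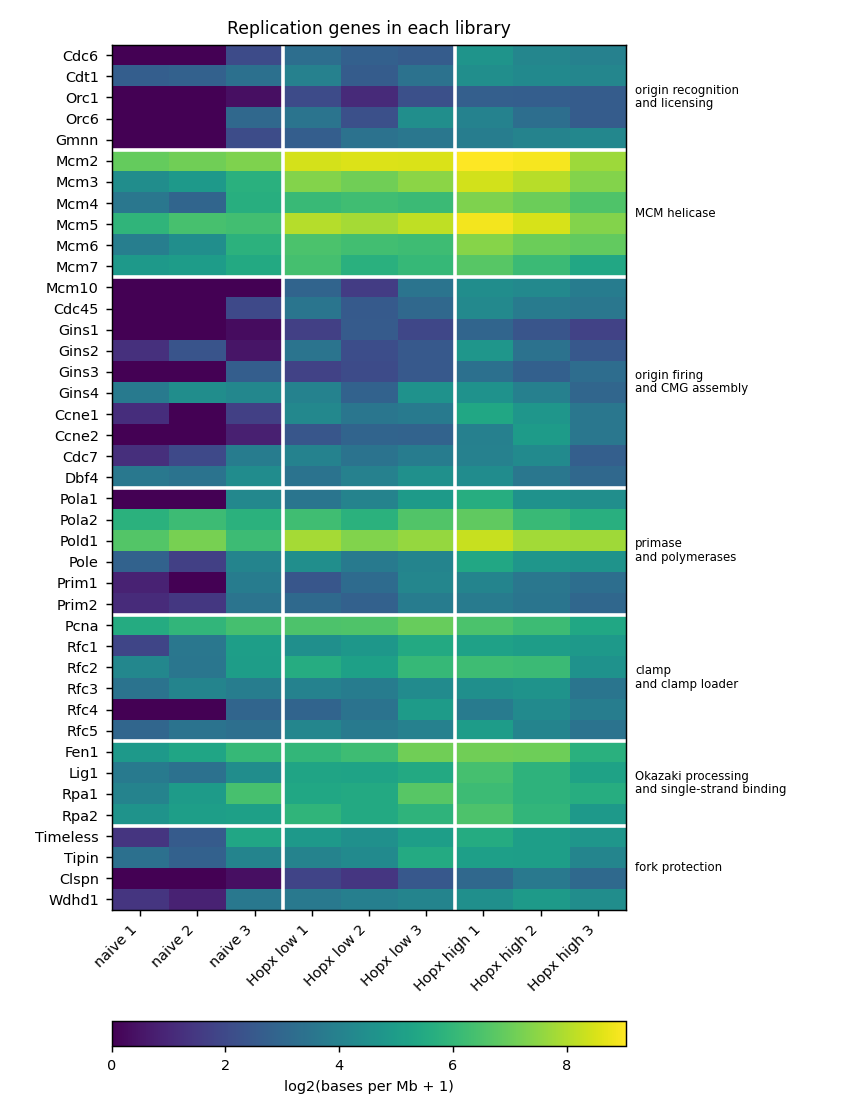
Level of each of the 41 genes (rows, grouped by role) in each of the 9 libraries (columns), as log2(bases per Mb + 1) in colour. Mcm2, Mcm3, Mcm5 and Pold1 are the 4 brightest rows in each Hopx library, and 12 and 14 genes are at 0 in naive replicates 1 and 2.

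Between Hopx high and naive cells, 12 of the 41 genes were called higher and 0 lower at an adjusted p under 0.05 (limma, Benjamini-Hochberg over 10825 genes). Over all genes tested 3.3% were called higher and 0.499% lower. The 12 genes were Mcm3, Mcm4, Mcm5 and Mcm6 of the helicase, Orc1, Cdc6 and Gmnn of licensing, Mcm10, Cdc45, Ccne1 and Ccne2 of origin firing, and Clspn of the fork checkpoint. None of the 16 genes for polymerases, primase, clamp, clamp loader, lagging-strand processing or single-strand binding was called in this fit. Some were called in other settings. Lig1 and Pole were called with each library divided by its median gene and with quantile normalization, and Pola1 with only the 2 groups compared. Over all genes these settings called 512, 511 and 294 higher, against 357 here. With naive replicates 1 and 2 kept apart, Lig1, Pola1 and Rfc4 were called, where 717 of all genes were called higher. Without naive replicate 3, Lig1, Pola1, Pole, Prim1, Prim2, Rfc1, Rfc2 and Rfc4 were called, where 2465 of all genes were called higher. The lack of calls among these genes thus depends on the naive samples used. The median log2 difference of the 41 genes was 1.70, against 0.15 for all genes tested, and 38 of the 41 were positive. All 3 Hopx high libraries lay above all 3 naive libraries for 24 of the 41 genes and below them for 0, against 14.2% and 7.68% of all genes. At an unadjusted p under 0.05, 22 of the 41 were higher and 0 lower, against 11.1% and 4.36% of all genes.

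The count of 12 depends on single libraries. It was 4 without Hopx high replicate 1, 6 without replicate 2, 7 without replicate 3, and 28 without naive replicate 3. Over all genes 357 were called higher, and in the same order of omissions 137, 228, 206 and 2465. With naive replicate 3 as the only naive sample, a setting chosen after the data were seen, the median of the 41 genes was 0.87, against -0.44 for all genes. In the fit to all samples these medians were 1.70 and 0.15. Naive replicate 3 was higher than the mean of naive 1 and 2 by a median log2 of 0.97 over the 41 genes and by 0.91 over all genes tested. Mcm3, Mcm10 and Ccne2 were each called in 22 of 23 alternative settings, and Mcm6 in 11. The filter asked only for a mean of 1 base per Mb over the samples, and 5 of the 41 genes (Mcm10, Gins1, Orc1, Clspn and Ccne2) had a naive mean below that, so they passed through the Hopx libraries. Of these 5 genes 4 were called, and of the other 36 genes 8 were called.

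Among the licensing genes, Cdc6, the ATPase that helps load the helicase, was listed at 0, 0 and 3.15 bases per Mb in naive cells. It had 24.6, 16.6 and 14.9 in Hopx high. Every Hopx high library was above every naive one, with a log2 difference of 3.24 ± 0.70 (SE) and an adjusted p = 0.00999 (limma). Orc1, the ATPase subunit of the origin recognition complex, was listed at 0, 0 and 0.308 in naive and had 5.64, 5.46 and 5.22 in Hopx high, the closest agreement among replicates of any licensing gene (2.49 ± 0.61, limma adjusted p = 0.0235). Gmnn was listed at 0, 0 and 3.31 in naive and had 13.2, 15.4 and 17.3 in Hopx high (2.96 ± 0.70, limma adjusted p = 0.0196). Thus the loading factor Cdc6 and the inhibitor of loading were both called. Orc1 was called too, but it passed the filter through the Hopx libraries, which fixes its step from naive. Cdt1, the partner of Cdc6 that geminin binds, was already at 5.5, 6.08 and 9.04 in naive, against 21, 18.5 and 16.9 in Hopx high. Its groups did not overlap, but the difference of 1.26 was not called (limma adjusted p = 0.365). Orc6, the small subunit of the origin recognition complex, was listed at 0, 0 and 7.4 in naive. It had 15.3, 8.69 and 5.23 in Hopx high, with overlap. Orc1 shares 360 exon bases with Gm12743 and Orc6 shares 114 with Vps35, each on the opposite strand.

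Among the helicase genes, Mcm2 and Mcm5 had the highest mean levels of the list over the 9 libraries. Mcm2 was at 119, 134 and 156 bases per Mb in naive and 527, 484 and 209.7 in Hopx high, with no overlap, and its log2 difference of 1.42 ± 0.48 was not called (limma adjusted p = 0.124). Mcm3 had 20.4, 28.7 and 53.0 in naive and 343, 271 and 163 in Hopx high (2.74 ± 0.50, limma adjusted p = 0.00281). The gap between the groups was wide for Mcm3 and narrow for Mcm2, and Hopx high replicate 3 was lowest in its group for both. Mcm4 had 11.1, 6.64 and 49.3 in naive and 156, 129 and 92.4 in Hopx high (2.48 ± 0.60, limma adjusted p = 0.0219). Mcm6 had 13.5, 21.2 and 55.5 in naive and 167, 128 and 115 in Hopx high (2.08 ± 0.53, limma adjusted p = 0.0302). Naive replicate 3 stood above the other naive libraries for both, but below every Hopx high library. Mcm5 had 59.3, 84.5 and 78.7 in naive and 468, 359 and 165 in Hopx high (2.00 ± 0.49, limma adjusted p = 0.0256). Mcm7 had 27.9, 30.7 and 44.0 in naive and 103, 71.4 and 42.4 in Hopx high. It was the helicase gene whose groups overlapped, and its difference of 0.90 was not called (limma adjusted p = 0.46).

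The 6 proteins form a ring with 1 copy of each, so their RNA levels can be set side by side only per length of transcript. Per kilobase of exon (union of protein-coding transcripts, GENCODE M21), the mean in naive cells was 41.9 bases per Mb for Mcm2, 21.8 for Mcm5, 12.8 for Mcm3, 12.4 for Mcm7, 8.32 for Mcm6 and 8.11 for Mcm4. In Hopx high it was 121 for Mcm2, 95.7 for Mcm5, 85.4 for Mcm3, 35.1 for Mcm4, 31.2 for Mcm6 and 24.4 for Mcm7. Mcm2 thus had the highest mean in both groups, while Mcm7 was above Mcm4 and Mcm6 in naive and below them in Hopx high. Within a library, Mcm3 took 8.99% to 13.7% of the length-scaled sum of the 6 genes in naive, 16.0% to 18.6% in Hopx low and 20.9% to 23.4% in Hopx high. Mcm7 took 11.4% to 12.6% in naive, 6.44% to 9.32% in Hopx low and 5.65% to 6.69% in Hopx high. These shares do not depend on how libraries are scaled. The Mcm3 shares of the 3 groups did not overlap, while those of Mcm7 overlapped between the Hopx groups. Mcm7 shares 321 exon bases with Ap4m1 on the opposite strand, and no source used here says whether counting was by strand. Its reads could include those of Ap4m1.

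**Figure D2:**
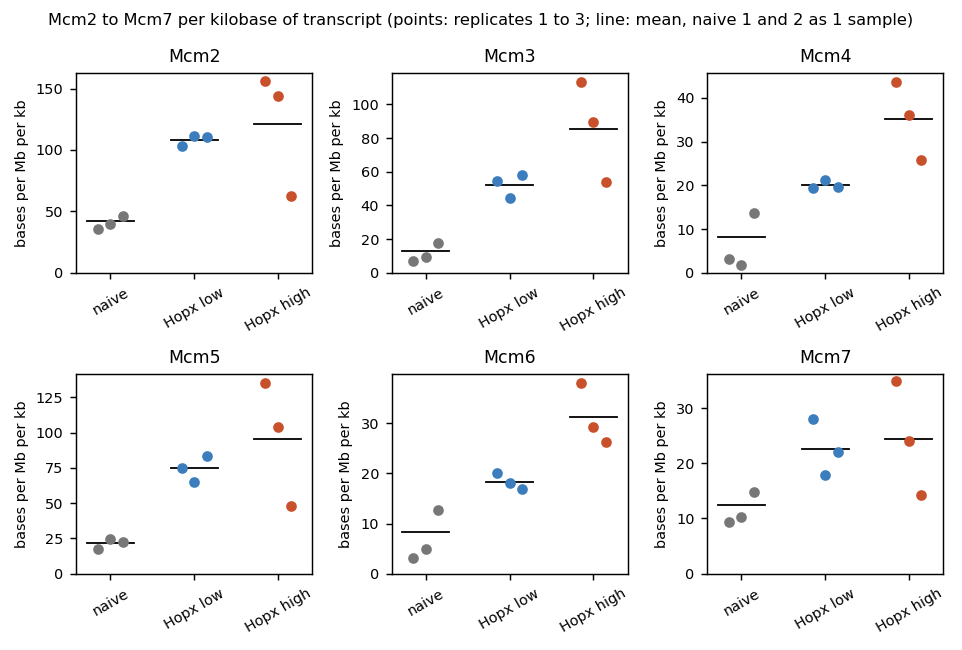
Level per kilobase of exon (bases per Mb per kb) of Mcm2 to Mcm7 in each library, with points for replicates 1 to 3 and a line at the group mean, naive 1 and 2 counted as 1 sample. Mcm3 goes from a mean of 12.8 in naive to 85.4 in Hopx high, while Mcm7 goes from 12.4 to 24.4 and its groups overlap.

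On the scale used here Mcm10, Ccne2 and Ccne1 of origin firing had the largest log2 differences of the list, an order that depends on the pseudocount. With a pseudocount of 10 Mcm3 led at 2.47, and Mcm10 was at 1.44. Mcm10, which helps switch the loaded helicase on, was listed at 0 in each naive library, while it had 20.8, 18.3 and 13 bases per Mb in Hopx high. The gene lies at chr2:4989714-5012791 of GRCm38. Its fitted log2 difference of 4.17 ± 0.68 (limma adjusted p = 0.000995) depends on the pseudocount, since naive was listed at 0. Ccne2, cyclin E2, was listed at 0, 0 and 0.754 in naive and had 14.2, 30.3 and 11.1 in Hopx high (3.76 ± 0.66, limma adjusted p = 0.00195). Ccne1, cyclin E1, had 1.25, 0 and 2.25 in naive and 41.2, 25.8 and 10.9 in Hopx high (3.37 ± 0.69, limma adjusted p = 0.00704). Both cyclins that drive entry into S phase lay above naive in every Hopx high library. Mcm10 and Ccne2 passed the filter through the Hopx libraries, which fixes their step from naive. Of the 2 cyclins only Ccne1 is free of this limit. Ccne2, at chr4:11191351-11204779, shares 336 exon bases with Ints8 on the opposite strand. Cdc45, a helicase cofactor, was listed at 0, 0 and 2.98 in naive and had 18.1, 12.7 and 10.9 in Hopx high (2.87 ± 0.70, limma adjusted p = 0.0233).

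The 4 GINS subunits, which complete the active helicase, did not share 1 pattern. Gins1 was listed at 0, 0 and 0.232 bases per Mb in naive and had 6.73, 4.21 and 2.43 in Hopx high. Its difference of 2.22 was not called (limma adjusted p = 0.0507). Gins1 passed the filter through the Hopx libraries, which fixes its step from naive. Gins2 had 1.39, 4.09 and 0.419 in naive and 25.8, 9.66 and 4.66 in Hopx high (2.35, limma adjusted p = 0.0936). Gins2 shares 2758 of its exon bases with Gse1 on the opposite strand, so its value is uncertain. Gins3 was listed at 0, 0 and 5.49 in naive and had 9.12, 5.82 and 8.44 in Hopx high, without overlap but not called (1.77, limma adjusted p = 0.229). Gins4 had 12.2, 20.5 and 17.1 in naive and 23.2, 14.5 and 6.88 in Hopx high, a difference of -0.30. Per kilobase, Gins4 had a mean of 12.4 in naive, and Gins1, Gins2 and Gins3 had 0.107, 0.405 and 1.01. Of the kinase that fires origins, the catalytic subunit Cdc7 had 1.33, 2.95 and 13 in naive and 14.9, 19.2 and 5.73 in Hopx high. Its activating subunit Dbf4 had 11.2, 9.83 and 19.9 in naive and 20.03, 11.1 and 7.39 in Hopx high, a difference of -0.27. The groups overlapped for both subunits, and neither was called.

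**Figure D3:**
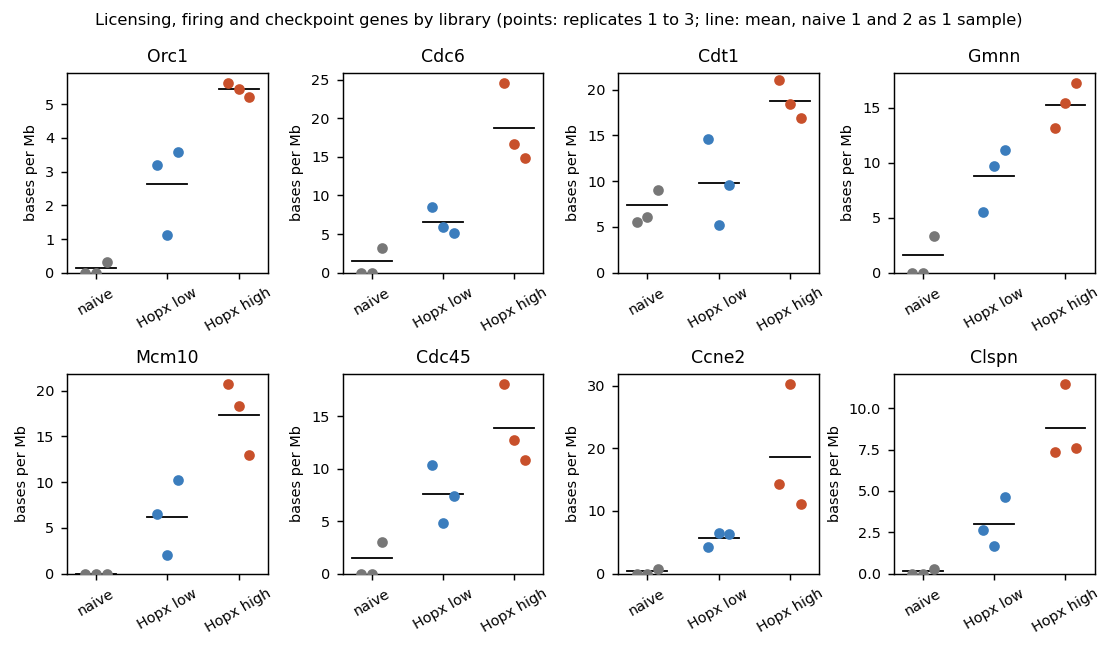
Level (bases per Mb) of 8 initiation and checkpoint genes in each library, with points for replicates 1 to 3 and a line at the group mean, naive 1 and 2 counted as 1 sample. Naive libraries are at 3.31 or less for all but Cdt1, and all 3 Hopx high libraries lie above all 3 Hopx low libraries for every gene shown. The genes shown are all among the 13 of 41 without overlap between the Hopx groups, against 4.49% of all genes. Licensing and firing genes that overlapped, such as Orc6, Ccne1 and Dbf4, are not shown.

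Genes of DNA synthesis at the fork had smaller or less even differences from naive. Pold1, the catalytic subunit of polymerase delta, had the highest level of the polymerase genes, at 98.9, 145 and 71.7 bases per Mb in naive and 310.3, 220.3 and 213 in Hopx high. Its groups did not overlap, and the log2 difference of 1.38 ± 0.46 was not called (limma adjusted p = 0.119). Pola1, the catalytic subunit of polymerase alpha, was listed at 0, 0 and 17.7 in naive and had 48.3, 23.6 and 21.3 in Hopx high (2.80 ± 0.90, limma adjusted p = 0.0975). Its partner Pola2 had 54.0, 72.8 and 53.4 in naive and 114, 69.0 and 50.9 in Hopx high, with overlap. The 2 subunits of 1 enzyme thus stood far apart in naive cells, at 1.65 bases per Mb per kilobase for Pola1 and 20.4 for Pola2. Pole, the catalytic subunit of polymerase epsilon, had 6.25, 2.26 and 16.1 in naive and 42.4, 25.9 and 24.2 in Hopx high, without overlap (1.70, limma adjusted p = 0.181). Primase, which starts each new strand, had differences of 1.5 for Prim1 and 1.04 for Prim2, with overlap and adjusted p-values of 0.421 and 0.552 (limma).

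The sliding clamp went another way. Pcna, the ring that holds polymerases on DNA, was at 46.6, 61.0 and 82.9 bases per Mb in naive, 89.8, 92.1 and 122 in Hopx low and 89.2, 72.5 and 40.4 in Hopx high. The gene lies at chr2:132249162-132253314 of GRCm38. Hopx high overlapped naive in full, and the log2 difference between them was -0.06 ± 0.51 (limma adjusted p = 0.976). Among the clamp loader genes, Rfc4 was listed at 0, 0 and 6.69 in naive and had 12.4, 18.9 and 13.4 in Hopx high (2.5 ± 0.82, limma adjusted p = 0.104). Differences of Rfc1, Rfc2, Rfc3 and Rfc5 ran from 0.40 to 1.20, and none was called. Rfc2 shares 952 exon bases with Lat2, Rfc5 shares 499 with Wsb2 and Rfc4 shares 175 with Eif4a2, each on the opposite strand.

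Of the genes for lagging-strand processing, Lig1, the ligase that joins Okazaki fragments, was at 12.0, 9.46 and 20.4 bases per Mb in naive and 83.0, 56.5 and 35.8 in Hopx high, without overlap (1.83 ± 0.56, limma adjusted p = 0.0776). Fen1, the flap nuclease, had 28.6, 38.8 and 64.9 in naive and 136, 130.4 and 52.2 in Hopx high, with overlap (1.04, limma adjusted p = 0.404). Fen1 shares 1908 exon bases with the antisense gene Gm10143. The single-strand binding subunits Rpa1 and Rpa2 had differences of 0.39 and 0.76, and neither was called. Clspn, the claspin adaptor that passes the fork's stress signal to the checkpoint kinase, was listed at 0, 0 and 0.287 in naive and had 7.33, 11.5 and 7.59 in Hopx high (3.09 ± 0.62, limma adjusted p = 0.00613). It was the only fork protection gene called, and it passed the filter through the Hopx libraries, which fixes its step from naive. Wdhd1, which links the helicase to polymerase alpha, had 1.66, 0.809 and 11.3 in naive and 21.7, 29.7 and 20.8 in Hopx high, without overlap (2.24, limma adjusted p = 0.0885). Timeless and Tipin, which form the fork protection complex, had differences of 1.38 and 1.18 (limma adjusted p = 0.404 and 0.413). Timeless was at 40.3 in naive replicate 3 against 1.61 and 5.12 in replicates 1 and 2.

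Hopx low cells were compared with the same naive libraries, so this comparison shares its controls with the one above. None of the 41 genes was called (limma, adjusted p under 0.05), where 0.296% of all genes were called higher and 0.00924% lower. At an unadjusted p under 0.05, 20 of the 41 genes were higher and 0 lower, against 8.06% and 0.462% of all genes. The median log2 difference of the 41 genes was 1.13, against 0.38 for all genes, and 40 of 41 were positive. All 3 Hopx low libraries lay above all 3 naive libraries for 22 genes and below them for 0, against 17.1% and 2.36% of all genes. Without naive replicate 3 the count of calls went from 0 to 25 and the median to 1.93, while over all genes the count called higher went from 32 to 2690 and the median to 0.88.

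Genes nearest to a call in that comparison came from the helicase and from origin firing. Mcm3 had 165, 135 and 175 bases per Mb in Hopx low, all above its highest naive value of 53.0 (log2 difference 2.09 ± 0.50, limma adjusted p = 0.0858). Mcm10 had 6.47, 2.02 and 10.2 in Hopx low where naive was listed at 0 (2.66 ± 0.68, limma adjusted p = 0.101). Ccne1 had 17.8, 10.7 and 12.3 in Hopx low, against at most 2.25 in naive (2.64 ± 0.69, limma adjusted p = 0.111). Mcm3 and Ccne1 lay above naive in every Hopx low library. So did Mcm10, but it passed the filter through the Hopx libraries, which fixes its step from naive. Mcm5 had 259.9, 225 and 289 in Hopx low (1.76 ± 0.49, limma adjusted p = 0.148), and Mcm2 had 349, 374 and 374 (1.37, limma adjusted p = 0.331). For each of the 6 helicase genes all Hopx low libraries lay above all naive ones. Gins4 had the only negative difference (-0.32), and Dbf4, Rfc3 and Cdt1 had the smallest positive ones, at 0.03, 0.23 and 0.29.

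**Figure D4:**
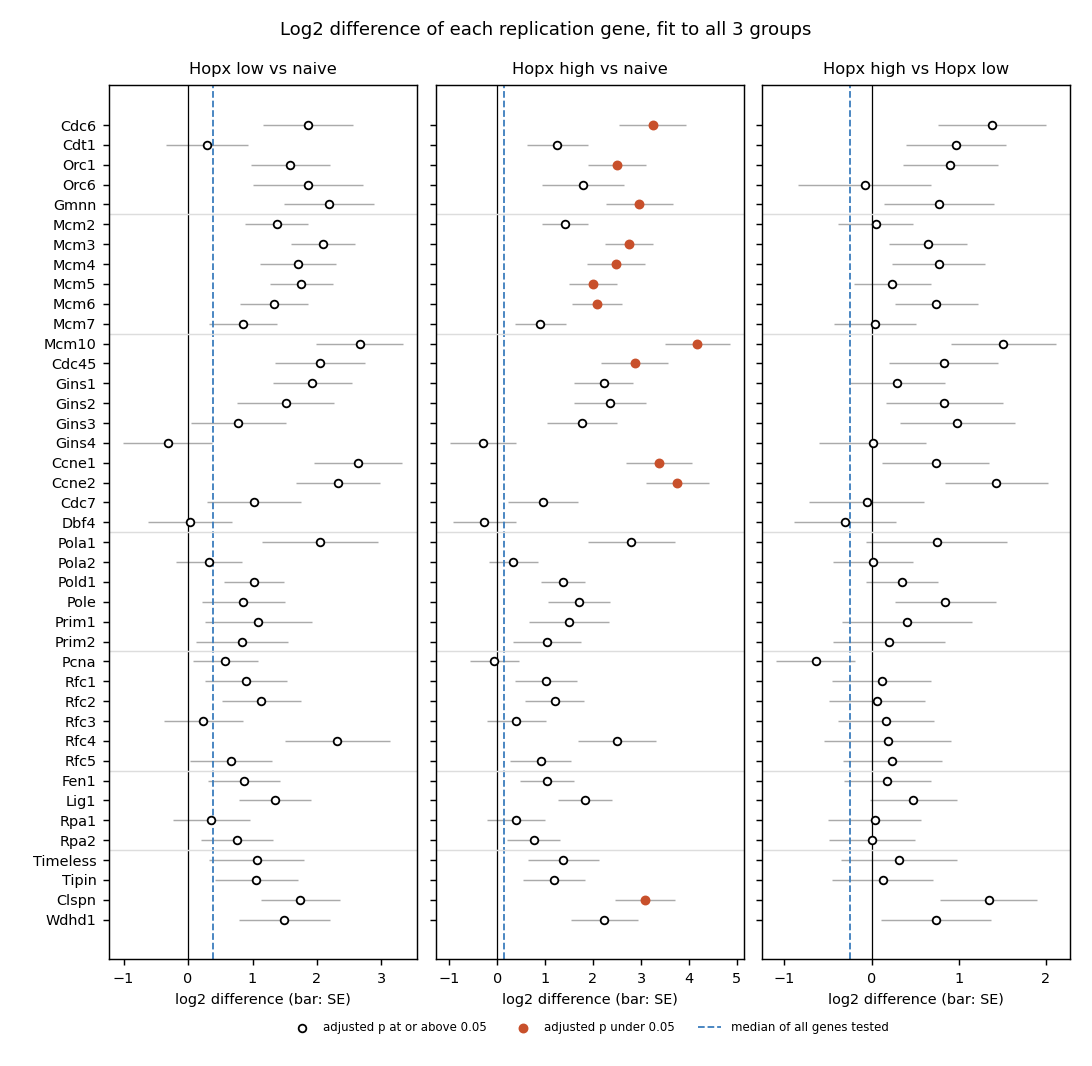
Log2 difference of each of the 41 genes (rows) in the 3 comparisons of 1 limma fit, with bars for 1 SE, filled points for an adjusted p under 0.05 and a dashed line at the median of all genes tested. Filled points occur only for Hopx high against naive, where 12 genes are filled, and the medians of all genes are 0.38, 0.15 and -0.25 from left to right.

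Between Hopx high and Hopx low, 0 of the 41 genes were called by limma in the fit to all groups, which called 0% of all genes in either direction. A fit to the 6 Hopx libraries alone also called 0 of the 41, while it called 0.489% of 10846 genes higher and 0.148% lower. Without adjustment (p under 0.05), 7 of the 41 genes were higher and 0 lower in the 6 libraries, against 3.31% of all genes higher and 6.46% lower. In the fit to all groups 4 were higher and 0 lower, against 2.07% and 2.43%. The median log2 difference of the 41 genes was 0.32, against -0.25 for all genes, and 37 of 41 were positive. The median was 0.18 without Hopx high replicate 1, where 26 of 41 were positive, 0.21 without Hopx low replicate 2, 0.55 when Hopx low replicate 3 was left out and 0.60 when Hopx high replicate 3 was. The median of all genes in these settings was -0.43, -0.37, -0.15 and -0.07. With each library divided by its median gene the 2 medians were 0.56 and -0.01. Hopx high lay above Hopx low in every library for 13 genes, against 4.49% of all genes. It lay below in every library for 1 gene, Pcna, against 10.1% of all genes.

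The smallest p-values of the 6-library fit belonged to firing, licensing and checkpoint genes. Mcm10 had 20.8, 18.3 and 13 bases per Mb in Hopx high and 6.47, 2.02 and 10.2 in Hopx low (log2 difference 1.51 ± 0.48, limma adjusted p = 0.187). Cdc6 had 24.6, 16.6 and 14.9 against 8.53, 5.90 and 5.15 (1.38 ± 0.45, limma adjusted p = 0.199). Ccne2 had 14.2, 30.3 and 11.1 against 4.32, 6.53 and 6.32 (1.43 ± 0.46, limma adjusted p = 0.199). In each of these genes the lowest Hopx high library was above the highest Hopx low one, and none passed. Clspn had 7.33, 11.5 and 7.59 against 2.66, 1.67 and 4.61 (1.34 ± 0.48, limma adjusted p = 0.264). Cdt1 had 21, 18.5 and 16.9 against 14.6, 5.18 and 9.62 (0.97 ± 0.45, limma adjusted p = 0.476). Cdt1 overlapped between naive and Hopx low, so its higher values were in Hopx high. The other genes that did not overlap were Mcm4, Mcm6, Cdc45, Gins3, Pole, Orc1, Gmnn and Wdhd1. By contrast, Mcm2, Mcm7, Rpa1, Rpa2, Pola2 and Gins4 had log2 differences of 0.00 to 0.05, each with an SE of about 0.4 to 0.5, so a modest difference in either direction is not excluded for them.

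By the authors' deposited table, 10 of the 41 genes had an unadjusted p under 0.05 between Hopx high and Hopx low, all higher in Hopx high, against 1.45% of its rows. These were Mcm4, Mcm6, Mcm10, Cdc6, Cdt1, Gins3, Orc1, Clspn, Gmnn and Wdhd1. The authors' deposited table gave 20 such genes for Hopx high against naive (4.9% of its rows higher). It gave 18 for Hopx low against naive (5.63%), and all were higher than naive. The authors' ratios match naive means with naive replicates 1 and 2 kept as separate samples. These libraries differed by about the sampling noise and count as 1 sample elsewhere here. If the authors' p-values also kept them apart, the 20 and 18 rest on fewer separate naive samples than they assume. These 3 shares are over all 23171 rows, of which 10825 passed the filter used here, while all 41 genes passed it. They are therefore not like the shares of genes tested given elsewhere.

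A rising order, with every naive library below every Hopx low library and every Hopx low library below every Hopx high library, was seen for 10 of the 41 genes, against 2.25% of all genes tested. The 10 were Orc1, Cdc6 and Gmnn of licensing, Mcm4 and Mcm6 of the helicase, Mcm10, Cdc45 and Ccne2 of firing, and Clspn and Wdhd1 of the fork. Of these 10, Orc1, Mcm10, Ccne2 and Clspn had a naive mean under 1 base per Mb and passed the filter through the Hopx libraries, which fixes their step from naive, so the count is a description and not support. With each library divided by its median gene the count was 12, against 3.01% of all genes, and the additions were Mcm3 and Lig1. Quantile normalization also gave 12, against 2.82%, with Mcm3, Lig1 and Pold1 added and Gmnn lost. Over the 41 genes the log2 difference between Hopx high and Hopx low had a Spearman rho of -0.44 with the mean level and 0.34 with exon length, a description over genes that share the same libraries.

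Same-numbered Hopx low and Hopx high libraries deviated together over genes, so the pairs were also read one by one. In pair 1 the Hopx high library was higher for 39 of the 41 genes (median log2 0.84, against 0.07 for all genes). In pair 2 it was higher for 38 (0.75, against -0.03). In pair 3 it was higher for only 14 of the 41 (-0.44, against -0.75 for all genes). The median of the 41 genes was thus above that of all genes in each pair, while on the scale of the library total most were lower in Hopx high replicate 3 than in Hopx low replicate 3. With each library divided by its median gene, 27 of the 41 were higher in pair 3, while the count over all 10825 genes also went up, from 2312 to 5576. Hopx high was above Hopx low in all 3 pairs for 14 genes, against 11.6% of all genes.

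Mcm2 and Mcm5 illustrate that pair: Mcm2 had 209.7 bases per Mb in Hopx high replicate 3 against 374 in Hopx low replicate 3, and Mcm5 had 165 against 289. Cdc6 went the other way in the same 2 libraries, with 14.9 against 5.15, as did Ccne2 with 11.1 against 6.32 and Mcm4 with 92.4 against 70.1. Hopx high replicate 3 was also the shallowest Hopx library.

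Ratios within a library, which no scaling can alter, separated the groups for Pcna. As a percentage of the summed level of Mcm2 to Mcm7, Pcna was at 18.6%, 19.96% and 19.0% in naive, 8.86%, 9.78% and 11.6% in Hopx low and 5.06%, 5.02% and 5.13% in Hopx high. The 3 groups did not overlap, and the Hopx high libraries were the closest to each other although their Pcna levels ran from 40.4 to 89.2 bases per Mb. This ratio was chosen after its values were seen and carries no test. A falling ratio of this kind was common, since 21.9% of all genes tested showed one, but among the 35 genes of the list other than Mcm2 to Mcm7 Pcna was the only one. A rising ratio was seen for Mcm10 and Ccne2, against 0.73% of all genes. Both passed the filter only through the Hopx libraries, so their step from naive was fixed by it and only the order of the Hopx groups is informative. Mcm10 was at 0% of the helicase sum in naive, 0.215% to 0.977% in Hopx low and 1.18% to 1.65% in Hopx high, and Ccne2 reached at most 0.173% in naive, 0.426% to 0.693% in Hopx low and 0.806% to 2.10% in Hopx high.

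**Figure D5:**
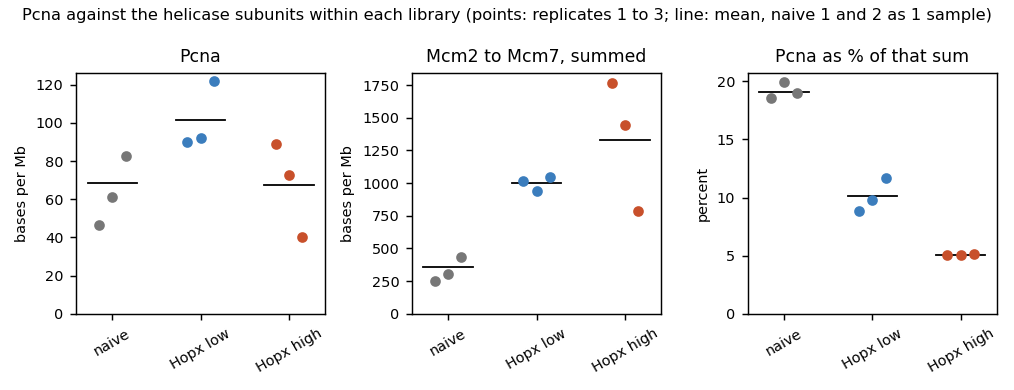
Pcna level, summed level of Mcm2 to Mcm7 (both in bases per Mb) and Pcna as a percentage of that sum in each library, with points for replicates 1 to 3 and a line at the group mean, naive 1 and 2 counted as 1 sample. The percentage is 18.6 to 19.96 in naive, 8.86 to 11.6 in Hopx low and 5.02 to 5.13 in Hopx high, while the Pcna levels overlap between naive and Hopx high.

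Between the Hopx groups Pcna had a log2 difference of -0.64 ± 0.39 in the 6-library fit (limma adjusted p = 0.589). The highest Hopx high value of 89.2 lay just under the lowest Hopx low value of 89.8, and with each library divided by its median gene the groups overlapped. Clamp and clamp loader genes together made up 13.4% to 15.3% of the summed level of the 41 genes in naive, 10.2% to 12.8% in Hopx low and 7.84% to 8.80% in Hopx high, without overlap. The helicase genes made up 37.9% to 40.4% in naive, 45.4% to 54.4% in Hopx low and 48.7% to 54.2% in Hopx high, so the Hopx groups overlapped there. Licensing genes made up 0.757% to 2.01% in naive, 1.47% to 2.19% in Hopx low and 2.39% to 3.68% in Hopx high, where the lower 2 groups overlapped.

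Other genes of replication were read from lists of the same pathway. Of 32 further replication genes 31 had a row and 30 were tested against naive in Hopx high, where 2 were called higher and 0 lower (limma), against 3.3% and 0.499% of all genes. Ccna2, cyclin A2 of S phase, was listed at 0 in each naive library, against 8.74, 10.5 and 12.4 bases per Mb in Hopx high (fitted 3.52, again dependent on the pseudocount, limma adjusted p = 0.00159). Dna2, a helicase-nuclease that trims Okazaki flaps, was listed at 0, 0 and 0.502 in naive and had 10.1, 11.1 and 5.47 in Hopx high (2.96, limma adjusted p = 0.00942). Both of these low genes were clear of naive in every Hopx high library. Both were under 1 base per Mb in every naive library and passed the filter through the Hopx libraries. That fixes their step from naive, so their calls are a description and not support. Of 13 genes of the S phase checkpoint 1 was called higher, Dtl, the substrate receptor of the ligase that destroys Cdt1 on DNA-bound PCNA. Dtl had 2.12, 1.43 and 2.46 in naive, 12.8, 10.2 and 18.5 in Hopx low and 34.7, 38.5 and 29.7 in Hopx high (3.50 against naive, limma adjusted p = 0.00183), with 3 groups that did not overlap. Of 4 inhibitors of the cycle (Cdkn1a, Cdkn1b, Cdkn2c and Rbl2) 0 were called by limma, with 1 higher and 1 lower at an unadjusted p under 0.05. In Hopx low against naive, and in both fits of Hopx high against Hopx low, 0 genes of these 3 lists were called. At an unadjusted p under 0.05, 5, 2 and 1 genes of the 3 lists in turn were higher in Hopx low than in naive and 0 lower, against 8.06% and 0.462% of all genes. Between the Hopx groups 3, 2 and 0 were higher in the 6-library fit and 1, 0 and 0 lower, against 3.31% and 6.46%.

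Mki67, a marker of cycling cells and no gene of these lists, had 49.0, 24.1 and 36.5 bases per Mb in Hopx high and 7.55, 7.23 and 15.1 in Hopx low, and was listed at 0, 0 and 1.11 in naive. It was called higher in Hopx high than in Hopx low in the 6-library fit (1.79 ± 0.44, limma adjusted p = 0.0397). It was not called in the fit to all groups (limma adjusted p = 0.769).

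Markers of other cells moved with the groups as well. The summed level of 8 B cell markers was 13.4 to 43.8 bases per Mb in naive, 21.6 to 29.99 in Hopx low and 4.10 to 10.01 in Hopx high, with 8, 8 and 7 of the 8 detected and Cd22 at 0 in Hopx high. B cells can divide and express the same replication genes, and the part of these markers in the replication gene values was not tested. The level of 11 dendritic cell and monocyte markers summed to 4.26 to 14.3 over all libraries, with Xcr1 and Clec9a at 0 throughout. NK cell markers summed to at most 3.03. Of the 2 CD8 T cell markers Cd8a was at 0 in naive and Hopx high, while Cd8b1 was at 14.8 to 31.1 in the 9 libraries.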

How the data were processed

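Per the labels' protocols, total RNA was freed of ribosomal RNA and sequenced on an Ion Torrent library kit. The submitters' processing notes name bedtools and mm10. Aligner, gene annotation and strand use: not given in the sources used here. The authors deposited a coverage signal for 23171 rows in 9 libraries, with group means, a ratio (fold) of these means and a p-value without adjustment. From the values, each deposited signal is the base coverage of a gene plus 1 base, as a share of the library's total, times the mean total of 333 megabases. Whole bases came back in 100% of values within 1e-06. The added base was removed and values were set to bases per Mb of summed coverage. Reads cannot be recovered from bases, so intervals from counting were not given.

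Genes averaging 1 base per Mb or more entered limma 3.58.1 (R 4.3.3) on log2(bases per Mb + 1), with all groups fitted together, a variance trend and Benjamini-Hochberg adjustment over all genes tested at 0.05, and again in the 6 Hopx libraries alone. Because of the pseudocount, folds of low genes are understated. Naive replicates 1 and 2 (1A and 1B in the labels) were averaged. Same-numbered Hopx low and Hopx high libraries had correlated deviations from their group means over 7857 genes (r = 0.45, 0.42 and 0.17), so the numbers may pair them. The block changed no call of the 41 genes between them (over all genes tested it called 60 higher and 15 lower, against 53 and 16 without it). The genes, their role groups, the pathway and marker lists and the tests were chosen with earlier results of these data known. All 41 genes could be named. From a pathway list up to 4 called genes, or up to 2 with the highest mean, could be named. Exon unions and overlaps came from GENCODE M21 (GRCm38), and promoter sequence from RefSeq (GRCm38.p6). Besides the genes named with their overlaps, Cdc45, Lig1, Pole, Timeless and Wdhd1 also share exon bases with a gene on the opposite strand. Alternatives were the scaling, pseudocount, filter, trend, deposited values, naive averaging, samples in the fit, replicate block and each replicate left out. Tables and figures were made in Python 3.11.15 (pandas 2.3.3, matplotlib 3.10.9).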

Additional observations from a re-analysis of the deposited data

How the results depend on the processing

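The count of 12 genes called between Hopx high and naive became 5 with no filter on low values, and leaving out 1 replicate gave 4 to 28. Over all genes the count called higher went from 357 to 215 with no filter, and to 137 to 2465 with 1 replicate left out. The count of 0 between Hopx low and naive became 1 with quantile normalization, 1 with a pseudocount of 0.1, 1 with deposited values and 5 with naive replicates 1 and 2 kept apart, and leaving out 1 replicate gave 0 to 25. Over all genes these settings called 46, 57, 56 and 164 higher, and 15 to 2690 with 1 replicate left out, against 32. The median log2 difference of the 41 genes from naive became 0.88 for Hopx high with a pseudocount of 10 and 0.87 with naive replicate 3 as the lone naive sample, a setting chosen after seeing the data. The median of all genes was 0.04 and -0.44 in these settings. For Hopx low leaving out 1 replicate gave a median of 1.01 to 1.93. The causes were not tested. Between Hopx high and Hopx low 0 of the 41 genes were called by limma under every alternative run.

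With the replicate number as a block, 5 genes were called between Hopx high and naive in the fit to all groups. With the block and only the 2 groups compared, 0 were called for Hopx high and 4 for Hopx low against naive. Over all genes these fits called 271, 36 and 126 higher in turn. Without the block, the fit to all groups called 357 higher for Hopx high and 32 for Hopx low. With only the 2 groups compared and no block it was 294 and 4. The counts of the 41 genes thus moved along with those of all genes. Naive numbers were not taken as pairs, since they share only 2 numbers with the Hopx groups after averaging. Their deviations had an r of 0.29 and 0.09 against Hopx high. Against Hopx low r was 0.65 and 0.61, above the 0.45, 0.42 and 0.17 between the Hopx groups. Whether the naive numbers pair with Hopx low was not tested, so the counts with the block stand beside those without it. The shallow naive libraries limit every low value in a comparison with naive.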
